A study of Homo sapiens with 8 samples.

Results

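Aminoacyl-tRNA synthetases are the enzymes that attach each amino acid to its tRNA before translation. The transcripts of 38 genes of this family were followed in DLD1 cells, a human colorectal cancer line, with and without overexpression of the tRNA methyltransferase TRMT6/61A. The members were chosen by gene symbol, out of 58302 genes in the count table: 22 cytosolic members (names ending in 1, the phenylalanine enzyme subunits FARSA and FARSB, TARS3, and the scaffold proteins AIMP1 and AIMP2, which carry no charging activity themselves) and 16 mitochondrial members (names ending in 2). All 38 were matched by symbol, and 37 passed the filter on low counts.

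The OE-WT cells stably carried wild-type TRMT6 and TRMT61A in a lentiviral pCDH construct, and the CTRL cells carried the vector. Each group had 2 libraries, and each library was sequenced in 2 lanes that the table gives as 1 column. The labels describe RNA from cleared lysates of cells washed with cycloheximide, poly(A) selection and a stranded kit, whereas the methods of the study describe removal of ribosomal RNA and more replicates. Nothing in the sources says whether the cells were clones, or whether the libraries came from separate cultures, so the p-values measure only the spread between these libraries. In bulk RNA of a culture, fewer cells in a given state and less RNA per cell cannot be told apart.

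TRMT6 and TRMT61A form the enzyme that methylates an adenosine (m1A) in the T loop of tRNAs, and the cytosolic synthetases act on the same tRNAs. Human cells keep separate sets of synthetases for cytosolic and mitochondrial translation, all encoded in the nucleus, although GARS1 and KARS1 supply both compartments from 1 gene each. Several cytosolic synthetases are bound in a multisynthetase complex with scaffold proteins, and many are known targets of the amino acid response driven by the transcription factor ATF4.

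The libraries held between 10327498 and 12379671 counts, so that a count of 0 allowed up to 3 counts, or 0.242 to 0.290 CPM (counts scaled to the library size), for counting error alone. Log2 CPM correlated across genes with r = 0.990 between the OE-WT libraries, r = 0.992 between the CTRL libraries and r = 0.977 to 0.983 between groups. The overexpressed genes were higher where the labels say so: TRMT6 was counted 2092 and 1841 times in the OE-WT libraries against 677 and 683 times in CTRL, and TRMT61A 1365 and 1327 against 758 and 700 times. The epithelial markers KRT8, KRT18, EPCAM, CDH1 and CDX2 were well expressed, whereas CDX1 had at most 1 count and KRT20 was low, at 8.36 and 9.93 CPM in OE-WT and 27.1 and 25.3 CPM in CTRL, as was VIL1, at 4.53 and 4.42 against 2.80 and 3.33 CPM. The 8 markers of leukocytes, endothelium and fibroblasts summed to between 2.65 and 3.89 CPM, with CD3E, COL3A1 and DCN at 0. VWF, one of them, fell from 30 and 14 counts in CTRL to 5 and 6 in OE-WT, and the part of such markers in the results was not tested.

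The amino acid response acts through C/EBP-ATF elements, so the promoters of the members were searched for the letters TGATGCAA on both strands. RefSeq promoters on GRCh38.p14, from 250 bases before to 50 after the start of transcription, were given for 32 members. The element was found in 6 of 18 cytosolic members and in 0 of 14 mitochondrial members, against 1.08% of 27305 genes. The 6 windows are shown because ATF4 is known to act through this element, and capitals mark the element, read in the direction of the gene, where the reverse complement of the search letters is TTGCATCA.

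TARS1, chr5:33440956-33440985, plus strand: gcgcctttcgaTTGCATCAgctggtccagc
IARS1, chr9:92293692-92293721, minus strand: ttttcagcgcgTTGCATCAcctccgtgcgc
CARS1, chr11:3057407-3057436, minus strand: cggggcggcggTTGCATCAgattctaggaa
MARS1, chr12:57488053-57488082, plus strand: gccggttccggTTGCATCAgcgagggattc
AARS1, chr16:70289675-70289704, minus strand: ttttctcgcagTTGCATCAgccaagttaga
NARS1, chr18:57621804-57621833, minus strand: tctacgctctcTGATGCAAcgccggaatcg

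The element began 2 bases after the start in TARS1, 14 after it in NARS1, and 2, 4, 13 and 187 bases before it in CARS1, MARS1, IARS1 and AARS1. A match of letters describes the sequence and does not show binding. These 6 genes did not move together in OE-WT, as described further on.

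HARS1 and HARS2, the cytosolic and mitochondrial histidine enzymes, are transcribed in opposite directions from 1 shared region on chromosome 5. RefSeq places their starts at 140691370 and 140691455, which leaves 84 bases between them. ETS cores (CGGAAG on either strand) lie beside each start, and such a core was found in 10 of 18 cytosolic and 9 of 14 mitochondrial promoters, against 22.6% of all genes. E-boxes (CACGTG) were found in 2 of 18 and 3 of 14, against 8.77% of all genes.

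Of the 22 cytosolic members, 17 had a positive log2 fold change, OE-WT over CTRL, against 7229 of the 14133 genes tested. With library size only as the scaling, LARS1, VARS1 and IARS1 turned negative. Of these 22 genes, 9 rose, 2 fell and 11 did not pass the test, where a call means an adjusted p below 0.05 in edgeR's quasi-likelihood test over 14133 genes. The rises included TARS1, EPRS1, HARS1, both subunits of the phenylalanine enzyme, KARS1, WARS1, GARS1 and YARS1, and the falls were QARS1 and CARS1. All were small: the largest, in TARS1, was 1.365-fold, and 0 of 37 members passed the thresholds of the study, an unadjusted p below 0.05 with an absolute log2 fold change above 1, against 3.15% of all genes tested. The share of cytosolic members called higher was 40.9%, against 9.44% of all genes, and 9.09% were called lower, against 11.6% of all genes. Calls in either direction made up 32.4% of the 37 members tested and 21.1% of all genes. The median log2 fold change was 0.17 for cytosolic members, 0.12 for mitochondrial members and 0.01 for all genes tested.

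**Figure D1:**
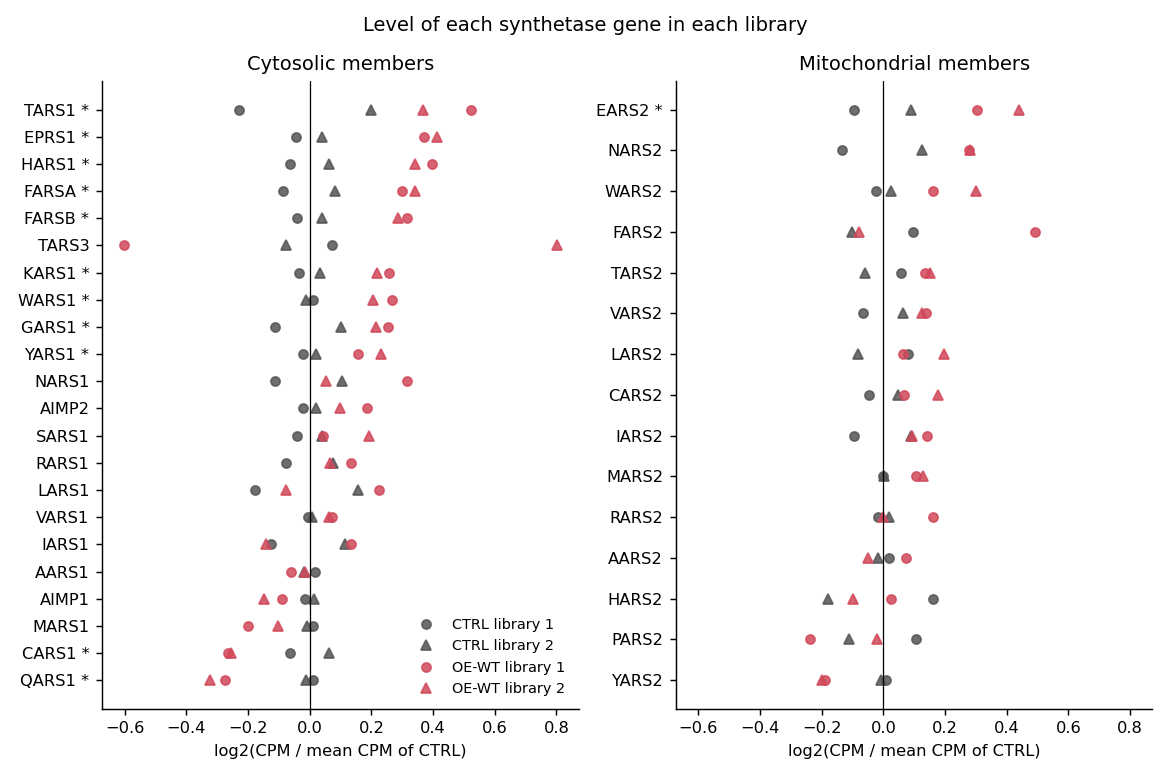
Each point is 1 library; the horizontal axis gives log2 of the CPM over the mean CPM of CTRL for the 22 cytosolic members (left) and the 15 tested mitochondrial members (right), and asterisks mark adjusted p below 0.05. Both OE-WT libraries lie right of both CTRL libraries for the 10 members called higher and left of them for QARS1 and CARS1, while the OE-WT libraries of TARS3 lie on both sides of CTRL.

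TARS1, the cytosolic threonine enzyme (chr5:33440696-33468091), had the largest log2 fold change, though not with a GC trend removed (0.36, against 0.48 for FARSA, 0.42 for EARS2 and 0.39 for HARS1) or without CTRL replicate 1. It had 68.3 and 61.4 CPM in OE-WT against 40.6 and 54.5 CPM in CTRL, a log2 fold change of 0.45 (SE 0.10, adjusted p = 0.0033). The groups did not overlap, but the CTRL libraries lay further apart than the OE-WT libraries, and without CTRL replicate 1 the log2 fold change was 0.25 (adjusted p = 0.086). TARS3, a second threonine enzyme of the cytosol, was barely detected, at 1.41 and 3.74 CPM in OE-WT and 2.25 and 2.03 CPM in CTRL, with overlapping groups.

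EPRS1, which joins glutamate and proline to their tRNAs in a single polypeptide, had 27.2 and 28.0 CPM in OE-WT and 20.4 and 21.7 CPM in CTRL. Its log2 fold change was 0.39 (SE 0.10, adjusted p = 0.0098). HARS1, the histidine enzyme, had 58.3 and 56.2 CPM in OE-WT and 42.4 and 46.3 CPM in CTRL, a log2 fold change of 0.37 (SE 0.08, adjusted p = 0.0022). Both genes were higher in each OE-WT library than in either CTRL library.

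FARSA and FARSB encode the catalytic subunit and the other subunit of the same tetrameric phenylalanine enzyme. FARSA had 82.1 and 84.5 CPM in OE-WT and 62.8 and 70.6 CPM in CTRL (log2 fold change 0.32, SE 0.08, adjusted p = 0.0040). FARSB had 81.7 and 80.0 CPM against 63.7 and 67.5 CPM (log2 fold change 0.30, SE 0.07, adjusted p = 0.0047). The subunits rose by nearly the same amount on the log2 scale, and neither overlapped between groups. With a trend on GC content removed they moved apart, FARSA to 0.48 (adjusted p = 9.9e-05) and FARSB to 0.18 (adjusted p = 0.072).

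KARS1 and GARS1 are the lysine and glycine enzymes that also serve mitochondria. KARS1 had 154 and 150 CPM in OE-WT and 126 and 132 CPM in CTRL, a log2 fold change of 0.24 (SE 0.07, adjusted p = 0.012). GARS1 had 128 and 124 CPM in OE-WT and 99.3 and 115 CPM in CTRL, a log2 fold change of 0.23 (SE 0.07, adjusted p = 0.027). Neither gene overlapped between groups, and without CTRL replicate 1 the value for GARS1 was 0.13 (adjusted p = 0.39). WARS1, the tryptophan enzyme, had 147 and 141 CPM against 123 and 121 CPM (log2 fold change 0.24, adjusted p = 0.013). YARS1, the tyrosine enzyme, had 201 and 211 CPM against 177 and 182 CPM (log2 fold change 0.19, adjusted p = 0.036), the smallest rise that was called.

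QARS1, the glutamine enzyme, fell. It had 151 and 146 CPM in OE-WT and 184 and 181 CPM in CTRL, with a log2 fold change of -0.30 (SE 0.06, adjusted p = 0.0020). CARS1, the cysteine enzyme, had 91.9 and 92.6 CPM against 106 and 115 CPM, a log2 fold change of -0.26 (SE 0.07, adjusted p = 0.011). In both genes each OE-WT library was below each CTRL library. QARS1 and HARS1 were the members called in all 8 alternatives that used every library and in all 4 fits that left out 1 library.

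Among the 11 cytosolic members that did not pass the test, log2 fold changes ranged from -0.15 in MARS1 to 0.27 in TARS3, which was -0.61 or 0.80 without 1 or the other OE-WT library. Of these 11, 3 were called under an alternative: NARS1, the asparagine enzyme, at 0.31 without OE-WT replicate 2 (adjusted p = 0.016) and 0.30 without CTRL replicate 2 (adjusted p = 0.025), VARS1, the valine enzyme, at 0.22 with the GC trend removed (adjusted p = 0.019), and MARS1 at -0.24 with library size only (adjusted p = 0.033). MARS1, the methionine enzyme, had 310 and 332 CPM in OE-WT and 359 and 354 CPM in CTRL, without overlap (adjusted p = 0.10). AARS1, the alanine enzyme, was at 114 and 118 CPM against 121 and 118 CPM, and IARS1, the isoleucine enzyme, had a log2 fold change of 0.00 (SE 0.09) with overlapping groups. The scaffold proteins gave values on either side of 0: AIMP2 had a log2 fold change of 0.14 (adjusted p = 0.23) and AIMP1 one of -0.12 (adjusted p = 0.40).

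Mitochondrial members yielded 1 call in 15, a rise of EARS2, and no fall. EARS2, the mitochondrial glutamate enzyme, had 30.2 and 33.2 CPM in OE-WT and 22.9 and 26.1 CPM in CTRL, a log2 fold change of 0.37 (SE 0.10, adjusted p = 0.012). The groups did not overlap. YARS2, the mitochondrial tyrosine enzyme, was the lowest, with 31.1 and 31.0 CPM in OE-WT and 35.8 and 35.3 CPM in CTRL (log2 fold change -0.20, adjusted p = 0.13). The other 13 lay between -0.13 in PARS2 and 0.28 in NARS2. Of all 15, 12 had a positive value, against 7229 of the 14133 genes tested, and RARS2 and AARS2 turned negative with library size only.

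The classes lay close together in size of change. The cytosolic median log2 fold change exceeded the mitochondrial one by 0.04, which was -0.01 without CTRL replicate 1 and 0.09 without CTRL replicate 2. NARS2, WARS2 and FARS2, the asparagine, tryptophan and phenylalanine enzymes of mitochondria, had log2 fold changes of 0.28, 0.23 and 0.23, each above that of YARS1 (0.19), but were not called (adjusted p = 0.17, 0.31 and 0.50). With 1 library left out, NARS2 ranged from 0.15 to 0.42, WARS2 from 0.15 to 0.31 and FARS2 from -0.07 to 0.48. Mitochondrial members had a median of 299 counts per library and a median SE of 0.10, against 829 counts and 0.07 in the cytosolic members. Split at a mean of 40 CPM, 8 of 18 cytosolic members at or above it were called higher (44.4%), against 18.9% of all genes at that level. Below it, 1 of 14 mitochondrial members (7.14%) and 1 of 4 cytosolic members were called higher, against 6.41% of all genes. Thus the mitochondrial share lay near that of other genes at such levels, and a difference between the classes was not tested.

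**Figure D2:**
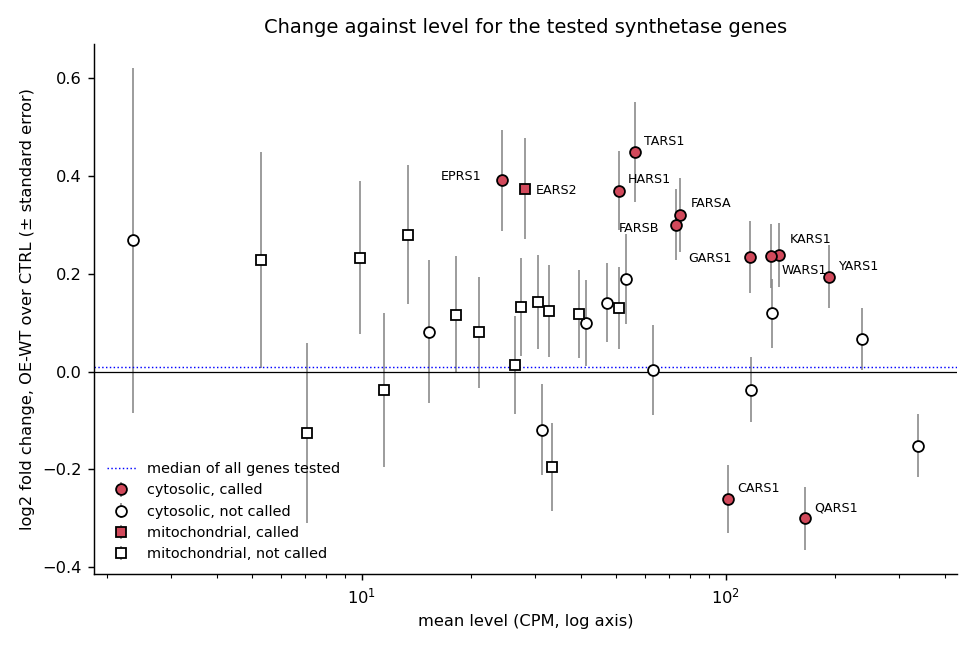
The horizontal axis is the mean level in CPM (log axis) and the vertical axis the log2 fold change of OE-WT over CTRL with its standard error, for the 37 tested members; circles are cytosolic, squares mitochondrial, and filled symbols have an adjusted p below 0.05. Most mitochondrial members lie at low levels with long error bars, and the dotted line at 0.01 is the median of all genes tested.

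The summed level showed the same closeness of the classes. All cytosolic members together had 2266 and 2261 CPM in OE-WT and 2115 and 2207 CPM in CTRL, and the mitochondrial members 367 and 370 CPM against 342 and 344 CPM. On TMM-scaled CPM, both sums were higher in OE-WT without overlap, by 1.047-fold and 1.075-fold. The TMM factors were 0.951 and 0.987 in OE-WT and 1.041 and 1.023 in CTRL, which raises OE-WT relative to CTRL. With each sum multiplied back by the factor of its library, the groups overlap in both classes, and the cytosolic sums are no longer higher in OE-WT. The separation of the sums thus rests on the TMM scaling. The ratio of the sums, cytosolic over mitochondrial, was 6.176 and 6.106 in OE-WT and 6.178 and 6.422 in CTRL, so that the upper OE-WT value and the lower CTRL value were almost equal. Over single members, 25 of 37 had groups that did not overlap (67.6%), 20 of them with OE-WT above and 5 below, against 60.2% of all genes.

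The balance within each amino acid was followed as the log2 ratio of the CPM of the cytosolic gene to that of its mitochondrial partner, in 17 pairs that leave out SARS2. The ratio was higher in both OE-WT libraries in 3 pairs, lower in both in 3 and overlapping in 11, with a median difference of 0.01. With 2 libraries against 2, the smallest two-sided p of an exact permutation test is 0.333, above a threshold of 0.05. A random order of the libraries would thus separate the groups of a pair with a probability of 0.333. The 3 higher and 3 lower out of 17 pairs lie near that share. The pairs are also not independent, because EPRS1, FARS2 and TARS2 each enter 2 of them. No other test of the pairs was run, so the separated pairs are described by their values only.

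HARS1 and HARS2, which share the region between their starts, had separate values. Their log2 ratio was 2.29 and 2.37 in OE-WT and 1.70 and 2.17 in CTRL, with HARS2 itself at 11.9 and 10.9 CPM against 13.1 and 10.3 CPM. HARS2 overlapped between groups, and the low CTRL value of the ratio came from CTRL replicate 1. For YARS1 and YARS2 the ratio was 2.69 and 2.77 against 2.31 and 2.37, with the cytosolic gene higher and the mitochondrial gene lower in OE-WT. For EPRS1 and PARS2, the mitochondrial proline enzyme, it was 2.12 and 1.95 against 1.37 and 1.67.

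The ratio of CARS1 to CARS2 went the other way, at 1.49 and 1.39 in OE-WT and 1.80 and 1.84 in CTRL. MARS1 over MARS2 was at 4.05 and 4.12 against 4.36 and 4.34, and VARS1 over VARS2 was lower by only 0.07. EPRS1 and EARS2, by contrast, had similar ratios in the groups, with values of -0.15 and -0.25 in OE-WT and -0.17 and -0.27 in CTRL: both glutamate enzymes rose, by 0.39 and 0.37 on the log2 scale.

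**Figure D3:**
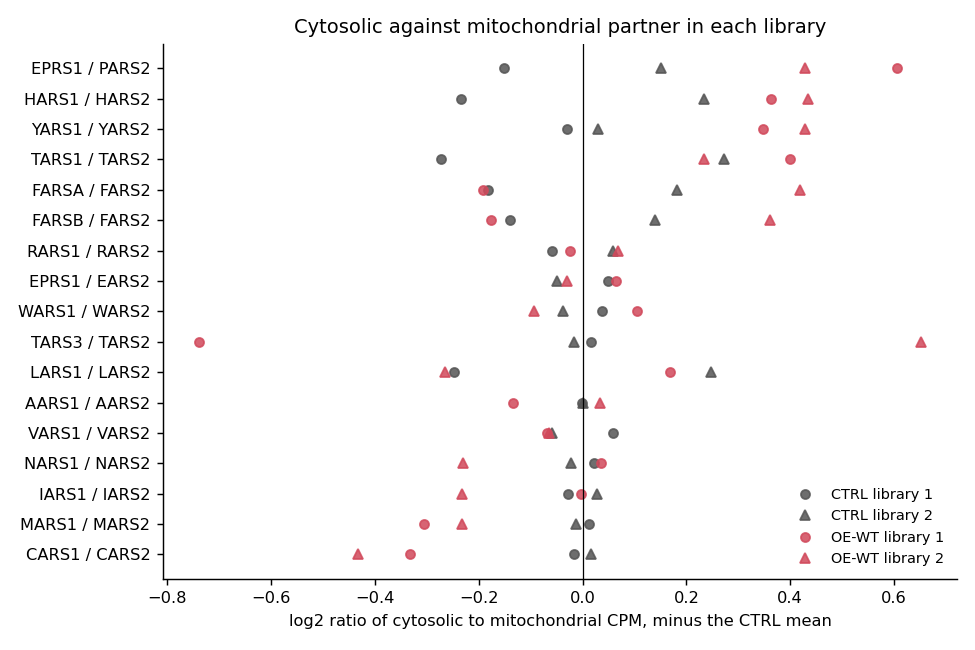
Each point is 1 library; the horizontal axis gives the log2 ratio of cytosolic to mitochondrial CPM minus its mean in CTRL, for 17 pairs. Both OE-WT libraries lie right of CTRL for EPRS1 with PARS2, HARS1 with HARS2 and YARS1 with YARS2, and left of it for CARS1, MARS1 and VARS1 with their partners.

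Glutamine and glutamate stood on opposite sides. Human mitochondria have no glutamine enzyme of their own: EARS2 also loads glutamate onto the mitochondrial glutamine tRNA, and an amidotransferase made of QRSL1, GATB and GATC turns it into glutamine. QARS1 fell while EPRS1 and EARS2 rose. The call of QARS1 held in every alternative, but those of EPRS1 and EARS2 were lost with both forms of DESeq2 (adjusted p = 0.149 and 0.155 on all genes with a count). GATC had 119 and 125 CPM in OE-WT and 102 and 103 CPM in CTRL (log2 fold change 0.25, adjusted p = 0.012), whereas QRSL1 and GATB had log2 fold changes of 0.20 and 0.17 (adjusted p = 0.30 and 0.33). GATC shares 1725 exon bases with SRSF9 on the opposite strand, which itself had a log2 fold change of 0.26, and the strand setting of the counting is not stated, so reads of the pair may not be separable. This grouping of genes was made after their values were seen.

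Within the cytosolic set, members of the multisynthetase complex and those outside it were described apart. Of 9 complex members, 2 rose (EPRS1 and KARS1) and 1 fell (QARS1), with a median log2 fold change of 0.08. Of the 13 others, 7 rose and 1 fell, with a median of 0.23. These shares are 22.2% higher and 11.1% lower in the complex and 53.8% and 7.69% outside it, against 9.44% and 11.6% of all genes. The shares are not matched for level: 18.9% of all genes at or above 40 CPM were called higher, near the share in the complex. The difference between the sets was not tested. EEF1E1, another scaffold protein of the complex, is not a member here, and had a log2 fold change of 0.15 without passing the test.

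By catalytic architecture, 6 of 10 cytosolic class II members rose and none fell, with a median of 0.25: TARS1, HARS1, FARSA, FARSB, KARS1 and GARS1. Of 10 cytosolic class I members, 3 rose (EPRS1, WARS1, YARS1) and 2 fell (QARS1, CARS1), with a median of 0.07. EPRS1 carries a domain of each class and was counted with class I. Of all genes, 9.44% were called higher and 11.6% lower, so that 0 falls in 10 lies near that share. Without regard to direction of fall, level matters here too: 18.9% of all genes at or above 40 CPM were called higher. The difference between classes was not tested.

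Synthetases known as targets of the amino acid response did not move as a block. Of 13, 5 rose (TARS1, EPRS1, WARS1, GARS1, YARS1) and 1 fell (CARS1), with a median log2 fold change of 0.12, against 4 higher and 1 lower of the 9 other cytosolic members, with a median of 0.24. The shares called higher were 38.5% and 44.4%, against 9.44% of all genes, and those called lower 7.69% and 11.1%, against 11.6%. Level was not matched, and 18.9% of all genes at or above 40 CPM were called higher. Among the 6 members with the element in their promoter, TARS1 rose and CARS1 fell, and NARS1, IARS1, AARS1 and MARS1 had log2 fold changes of 0.19, 0.00, -0.04 and -0.15.

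The list of ATF4 and its known targets gave more falls than rises. Of 29 tested genes of the 32 listed, 1 rose (3.45%, against 9.44% of all genes) and 6 fell (20.7%, against 11.6%), with a median log2 fold change of -0.15. These shares are not matched for level, and the listed genes had a median of 780.5 counts per library. Calls depend on level: 18.9% of genes at or above 40 CPM were called higher, against 6.41% below it. ATF4 itself had 437 and 447 CPM in OE-WT and 504 and 497 CPM in CTRL (log2 fold change -0.18, adjusted p = 0.047). That call held in 3 of the 8 alternatives on all libraries, where the adjusted p ranged from 0.017 to 0.15, and the adjusted p reached 0.23 with a library left out. Among the called genes, the largest fall was in STC2, a secreted glycoprotein at 1.41 and 1.67 against 4.35 and 3.57 CPM (log2 fold change -1.36, adjusted p = 0.0020). PCK2, the mitochondrial PEP carboxykinase, came next (-0.61, adjusted p = 3.7e-05). ASNS had a log2 fold change of -1.04 at 8 and 9 against 24 and 20 counts, and was not called (adjusted p = 0.066). SLC3A2, the heavy chain of amino acid transporters, PPP1R15A, a phosphatase subunit that reverses the stress block on translation, and DDIT4, an inhibitor of mTORC1, fell by 0.45, 0.38 and 0.30 on the log2 scale. ATF5, a related transcription factor, rose by 0.24 (adjusted p = 0.045).

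Of 16 tested genes among 17 with other roles in tRNA charging, GATC rose and PTRH2, a peptidyl-tRNA hydrolase of mitochondria, fell (log2 fold change -0.25, adjusted p = 0.015). Each direction made up 6.25% of these genes, below the 9.44% and 11.6% of all genes. The median of these genes was 0.11, with 13 positive values of 16, against 7229 of the 14133 genes tested.

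Levels were compared between genes as CPM per kilobase of the canonical transcript. MARS1 was highest in CTRL, at 127 ± 1.26 (SD, n = 2), followed by QARS1 at 74.5 ± 0.83, YARS1 at 73.6 ± 1.45, SARS1, the serine enzyme, at 67.4 ± 2.68 and KARS1 at 64.8 ± 2.18. The CTRL libraries of QARS1 and YARS1 overlapped, as did 20 of the 37 neighbouring pairs in the order. In OE-WT, QARS1 stood at 60.6, after MARS1, YARS1, KARS1 and SARS1. The median was 35.8 for cytosolic and 5.62 for mitochondrial members in CTRL, and 33.8 and 6.18 in OE-WT.

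The cytosolic gene exceeded its partner per kilobase in 14 of 17 pairs in CTRL, with a median ratio of 3.34. The ratio reached 22.1 for MARS1 over MARS2. In the other direction, LARS1, the cytosolic leucine enzyme, stood at 3.14 against 10.2 for LARS2, EPRS1 at 4.33 against 4.71 for EARS2, and TARS3 at 0.615 against 10.6 for TARS2. The highest mitochondrial member, CARS2 at 17.0, lay below 16 of the 22 cytosolic members. LARS1, EPRS1 and FARSB were the lowest among cytosolic members other than TARS3. This order depends on the annotated length: FARSB has a canonical transcript of 6761 bases, against 1811 for FARSA. In CTRL these 2 subunits had similar mean CPM, 65.6 and 66.7.

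**Figure D4:**
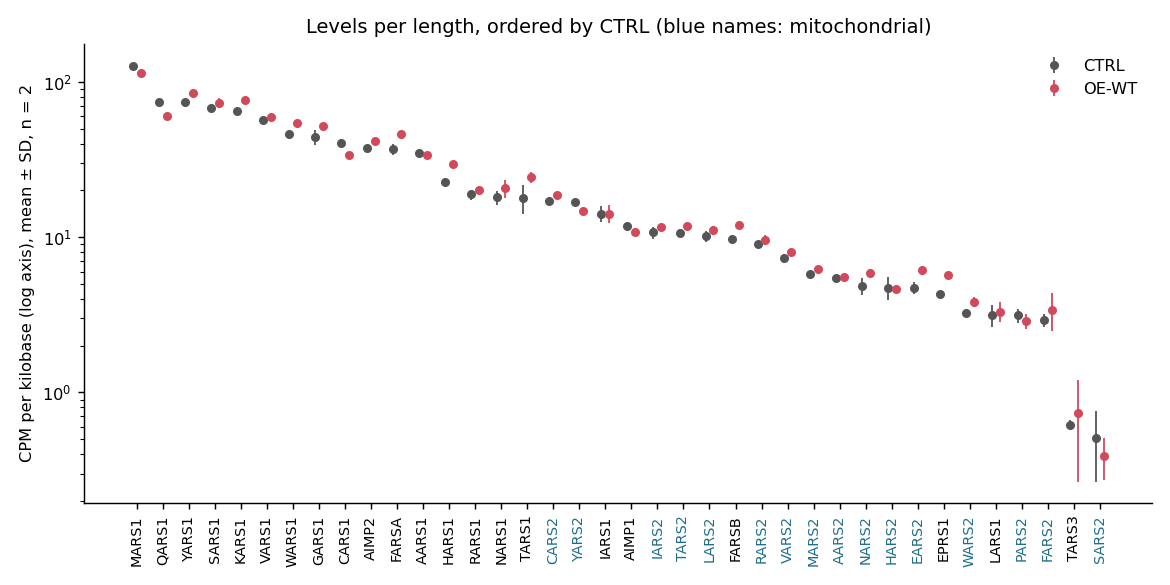
The vertical axis is CPM per kilobase of canonical transcript (log axis), mean ± SD of 2 libraries, for all 38 members in the order of CTRL; grey is CTRL, red is OE-WT, and blue names are mitochondrial. Levels run from 127 in MARS1 to 0.512 in SARS2 in CTRL, and the group means lie close together for each member compared with that range.

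SARS2, the mitochondrial serine enzyme, was the member that could not be tested. Its counts were 9 and 6 for OE-WT, against 17 and 8 for CTRL. Of its exon bases, 48.2% lie on the same strand in another protein-coding gene, ENSG00000269547, that had 0 counts in every library, and the part of this overlap in the low count of SARS2 was not tested. Exon bases were shared on the same strand by 7 members, in 3 of them (EARS2, HARS1, HARS2) with a gene that had counts, and on the opposite strand by 19, in 18 of them with such a gene. EARS2 shares 203 exon bases with GGA2 on its own strand (log2 fold change 0.13) and 11 with UBFD1 on the other (0.62). HARS1 shares 1090 with WDR55 on the opposite strand, whose counts reached 114% of those of HARS1 (log2 fold change 0.08), and 108 with HARS2. AIMP2 shares 532 (29.1% of its exon bases) with EIF2AK1 on the opposite strand, which rose by 0.26 and reached 330% of its counts. MARS1 shares 355 with DDIT3 on the opposite strand (-0.27). Pseudogenes named for 12 members had at most 2 counts.

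The calls rested on small differences, and the choice of processing changed how many there were. DESeq2 on the same 14133 genes called 4 cytosolic members higher (TARS1, HARS1, FARSA, FARSB) and 1 lower (QARS1). With all 26095 genes that had a count, edgeR called 6 higher and DESeq2 2 (TARS1 and HARS1), and library size alone as the scaling called 4 higher. Without CTRL replicate 1, which was the lower CTRL library in 8 of the 9 cytosolic members called higher, 2 were called higher (HARS1 and WARS1). Every one of the 12 called members kept its sign in all 12 alternatives.

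**Figure D5:**
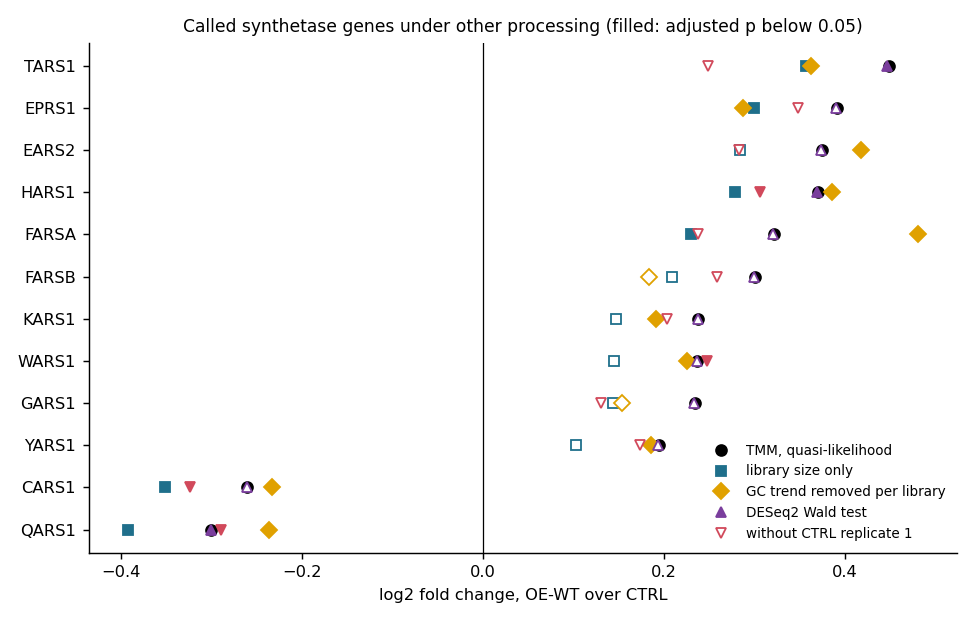
The horizontal axis is the log2 fold change of OE-WT over CTRL for the 12 called members under 5 ways of processing, and filled symbols have an adjusted p below 0.05. All symbols of a member lie on the same side of 0, and TARS1, HARS1 and QARS1 are filled in each of the 4 that used every library.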

How the data were processed

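RNA sequencing of 4 libraries was analysed. The authors deposited raw counts per gene, whole numbers with 1 column per library. The methods of the study name Cutadapt, HISAT2, HTSeq and GRCh38, whereas the processing notes of the submitters list HISAT2 2.2.1, featureCounts 2.0.0 and DESeq2 1.34.0. The annotation release and strand setting are not given in the sources used here. Symbols, coordinates and transcript lengths were taken from GENCODE (release 44, GRCh38), where 57532 of 58302 identifiers had an entry.

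Counts were tested with edgeR 4.0.16 in R 4.3.3 (quasi-likelihood test, TMM scaling, genes kept by filterByExpr at a minimum count of 10, no replicate block) and Benjamini-Hochberg adjustment over 14133 genes. CPM use TMM-scaled library sizes. SE is the absolute log2 fold change over the square root of the quasi-likelihood F statistic, an approximate standard error. The script was tested on simulated counts. Each test was repeated with DESeq2 1.42.0 (on all genes with a count and, added after seeing the data, on the genes that edgeR tested), with scaling by RLE or by library size only, with a replicate block, with the filter set to 1 count in all or to 10 counts per library, and with removal of a GC trend (lowess, span 0.3) or with each library left out. In the last, the lone library of a group is assumed to vary like the other group.

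All members could be named, those with an adjusted p below 0.05 with statistics and the others by counts, ranges and extremes, and called genes of the other lists were named. Further genes of those lists (QRSL1, GATB, EEF1E1, ASNS) and NARS2, WARS2 and FARS2 were named after their values were seen. Lists came from general knowledge. Members and lists were chosen with earlier results of these data known.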

Additional observations from a re-analysis of the deposited data

How the results depend on the processing

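RLE size factors and a minimum of 10 counts in every library left all 37 tested members on the same side of the threshold. The number of cytosolic members called higher was 9, and became 4 with library size only, 4 with DESeq2 on the same genes and 2 with DESeq2 on all 26095 genes with a count, where edgeR gave 6, and 2 to 9 when 1 library was left out. Cytosolic members called lower went from 2 to 3 with library size only (MARS1 gained), to 1 with DESeq2 in both forms and to between 1 and 2 when 1 library was left out, with 1 without CTRL replicate 2, where CARS1 was lost. The call of EARS2, 1 mitochondrial member, went to 0 with library size only and with both forms of DESeq2 and ranged from 0 to 1 with a library left out, being lost without OE-WT replicate 2 and without CTRL replicate 1. With library size only, 1 mitochondrial member (YARS2) was called lower, against 0 otherwise. The cytosolic median of 0.17 was 0.0731 with library size only and 0.10 to 0.21 with a library left out, and the mitochondrial median of 0.12 was 0.0332, and 0.11 to 0.13, under the same alternatives, and 0.10 with no filter. Library size only shifted the median of all genes from 0.01 to -0.08 and the share of calls that were higher from 44.8% to 23.0%.

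On 14133 genes edgeR called 2976 and DESeq2 1377, an alternative chosen after seeing the data; on 26095 genes they called 2271 and 1191. Other charging genes called higher (1) went to 0 with library size only and both forms of DESeq2 and those called lower (1) to 0 with both forms of DESeq2, each ranging from 0 to 1 with a library left out. ATF4 targets called higher (1) went to 0 with library size only, no filter, the replicate block and both forms of DESeq2, to 4 with the GC trend removed and to between 0 and 2 with a library left out. ATF4 targets called lower (6) were 12 with library size only, 3 with DESeq2 on all genes with a count, 4 on the filtered genes and 4 to 7 with a library left out. Among members, the replicate block lost the call of YARS1 (adjusted p = 0.11), and otherwise changed no member call. Deviations of same-numbered libraries correlated at r = -0.0681 over genes. With 2 libraries per group, this value cannot show whether same-numbered libraries were prepared together. The cytosolic minus mitochondrial median (0.04) ranged from -0.01 to 0.09 with a library left out, turning without CTRL replicate 1. Of members not called, TARS3 and FARS2 are among those that changed sign with a library left out, and no called member did. The causes of these changes were not tested. At this depth, 3 mitochondrial members with larger log2 fold changes than the smallest called cytosolic rise were not called.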
